A study of Mus musculus with 3 samples.

Results

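Complement transcripts were followed across the cells of the lumbar dorsal root ganglion (DRG), the ganglia that hold the cell bodies of sensory neurons, in adult and aged mice. The members were 9 genes chosen by symbol: C1qa, C1qb and C1qc, C1s1, C4b, C3, Serping1, C3ar1 and C5ar1, of 32227 genes in the count tables. All 9 were present, and 52 further complement genes were counted as the rest of the pathway. Single-nucleus RNA sequencing (snRNA-seq) had been performed on L3, L4 and L5 DRG of C57BL/6 mice with the PIP-seq chemistry. There was 1 adult library (3 months of age) and there were 2 aged libraries (21 months), with no injury, drug or transgene in any of them. The ages are those of the sample labels, from which the series description departs for the aged group. The number of mice behind a library is not given, and the study calls the libraries biological replicates without saying which animals they came from, so p-values measure the spread between these libraries only. In the age tests that spread comes from the 2 aged libraries, since 1 adult library shows none. The edgeR test also draws the variance of each gene towards a trend over all genes. A p-value is therefore not a measure of that gene's own spread, and a small one can go with aged libraries that lie far apart. With a lone adult library, age and any other difference between libraries cannot be told apart, and the smallest exact permutation p that 1 against 2 libraries allows is 0.333.

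Complement is a set of plasma and tissue proteins that mark cells, debris and microbes for removal. In the classical pathway, C1q binds a target and activates the proteases C1r and C1s, which cleave C4 and C2 to form the enzyme that cleaves C3. The fragments C3a and C5a signal through the receptors C3ar1 and C5ar1 on myeloid cells, and the C1 inhibitor Serping1 stops C1r and C1s. In nervous tissue C1q is known chiefly as a product of macrophages and microglia.

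Nuclei were barcodes with more than 1000 genes: 11518 adult ones, 5130 of aged replicate 1 and 2611 of aged replicate 2, from 167664164, 95647106 and 69045987 UMIs (unique molecular identifiers, 1 per captured transcript). Between 53.8% and 58.4% of the UMIs of a library lay in kept nuclei. Nuclei were clustered without the complement genes and named from markers, and names carry "-like" because they were rebuilt here. The classes were satellite glial cells (SGC), which wrap the neuronal cell bodies, non-myelinating Schwann cells (NMSC), myelinating Schwann cells (MSC), fibroblasts, endothelial cells, mural cells, myeloid cells, lymphocytes and neurons. They took in 17580 of 19259 nuclei, and 1608 nuclei of mixed clusters were left out. No more than 1 kept barcode was shared by any pair of libraries. The libraries were labelled male, but a UMI of Xist, which female cells transcribe, was found in 85.5%, 66.3% and 72.2% of their nuclei and one of 4 Y-linked genes in 14.9%, 13.5% and 11.0%. In the methods of the study the aged mice are given as female in the account of the animals and as male and female for its explant cultures. The values go against the labels of all 3 libraries, so none can be set aside. Some age differences were also looked at in nuclei with a Xist UMI. They were those of C4b in the SGC-, NMSC-, MSC- and fibroblast-like classes, of C1s1 and C3 in fibroblast-like and of C3ar1 in myeloid-like nuclei. Both aged libraries stood above the adult one in each of them (C4b in SGC-like nuclei measured 49.6, 168 and 168 CPM). Nuclei with a Xist UMI were most of each class, in SGC-like nuclei 3165 of 3200, 350 of 364 and 196 of 201. Their values therefore largely repeat those of the class and are no test of sex. In the few nuclei without one, both aged libraries were higher except for C3ar1 (0, 3 and 0 UMIs). Several of those levels rest on few UMIs, such as C3 in fibroblast-like nuclei (0, 3 and 1) and C4b in SGC-like nuclei (7, 9 and 5). They do not repeat the comparison. Levels are UMIs per 1000000 UMIs of a class (CPM), in the order adult, aged replicate 1, aged replicate 2.

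All 9 genes lie on the minus strand (GRCm38). C1qa, C1qc and C1qb, the chains of 1 protein, stand side by side on chromosome 4 within 18675 bases (C1qa at chr4:136895917-136898803, C1qc at chr4:136889804-136893065, C1qb at chr4:136880129-136886187). C4b (chr17:34728380-34743882) and C3 (chr17:57203970-57228136) share a chromosome, as do C1s1 (chr6:124530345-124542359) and C3ar1 (chr6:122847138-122856161). Serping1 is at chr2:84765387-84775444 and C5ar1 at chr7:16246743-16259540. C4b and C1s1 have near-identical copies, C4a and C1s2, so reads could have been split between the copies, and C1s1 overlaps Gm16567 on the other strand, which cannot be separated where counting is not stated to use strand. C3 overlaps the microRNA gene Mir6978.

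RefSeq promoters (GRCm38.p6, 250 bases before to 50 after the gene start) were held for 6 of the 9 members. Those of 2 C1q chains, which were highest in myeloid-like nuclei, and of C3 and C1s1, whose mean levels were highest in fibroblast-like nuclei among the tested classes, are printed so that both groups can be read side by side, 5′ to 3′ on the gene's strand. Capitals mark the letters GAGGAA on either strand, the core bound by ETS factors of myeloid cells.
C1qb, chr4:136886151-136886450: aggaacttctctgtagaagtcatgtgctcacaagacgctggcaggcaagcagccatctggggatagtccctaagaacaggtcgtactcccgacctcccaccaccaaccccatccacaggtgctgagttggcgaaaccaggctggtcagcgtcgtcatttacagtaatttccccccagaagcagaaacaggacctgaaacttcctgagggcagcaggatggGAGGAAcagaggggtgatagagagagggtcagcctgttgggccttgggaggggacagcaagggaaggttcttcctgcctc
C1qc, chr4:136892865-136893164: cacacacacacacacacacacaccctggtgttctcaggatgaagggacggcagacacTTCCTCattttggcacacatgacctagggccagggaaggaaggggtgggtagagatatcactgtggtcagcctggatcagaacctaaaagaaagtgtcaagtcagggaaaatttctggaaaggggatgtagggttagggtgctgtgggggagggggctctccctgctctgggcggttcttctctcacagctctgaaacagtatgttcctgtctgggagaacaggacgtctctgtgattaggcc
C3, chr17:57228087-57228386: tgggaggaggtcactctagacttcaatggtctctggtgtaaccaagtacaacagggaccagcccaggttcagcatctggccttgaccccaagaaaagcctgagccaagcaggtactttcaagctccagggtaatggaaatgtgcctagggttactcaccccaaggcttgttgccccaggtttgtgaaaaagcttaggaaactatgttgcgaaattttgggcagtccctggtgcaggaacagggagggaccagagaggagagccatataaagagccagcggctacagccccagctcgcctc
C1s1, chr6:124542310-124542609: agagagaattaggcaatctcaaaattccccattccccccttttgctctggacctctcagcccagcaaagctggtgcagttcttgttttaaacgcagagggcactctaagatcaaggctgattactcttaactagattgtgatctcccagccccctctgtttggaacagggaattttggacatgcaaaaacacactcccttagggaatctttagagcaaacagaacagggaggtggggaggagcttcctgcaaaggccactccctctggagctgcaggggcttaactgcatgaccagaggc
The match in C1qb began 30 bases and that in C1qc 193 bases before the gene start, and the windows of C3, C1s1, C3ar1 and C5ar1 held none. GAGGAA was found in 28.3% of 32851 promoters of this length. The interferon motifs GAS (TTCNNNGAA, in 8.30% of promoters) and ISRE (in 3.44%) had no match in any member's window. A match is only a run of letters, and its absence says nothing about a factor.

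The C1q chains and both anaphylatoxin receptors were highest in myeloid-like nuclei. C1qb, the chain with most UMIs there, measured 114, 169 and 131 CPM (34, 173 and 111 UMIs), C1qa 97.5, 103 and 57.9 CPM, and C1qc 60.5, 116 and 103 CPM. Every myeloid-like library stood above every library of the other tested classes for each chain: the next class averaged 12.5 CPM for C1qa and 13.5 CPM for C1qb, both in lymphocyte-like nuclei, and 10.8 CPM for C1qc in fibroblast-like nuclei. Below that rank the neighbouring classes overlapped down to MSC-like nuclei. C3ar1, the receptor for C3a, was held by myeloid-like nuclei at 83.2 ± 52.4 CPM (SD, n = 3) against 3.98 ± 4.65 in the next class, and C5ar1, the receptor for C5a, at 27.8 ± 11.0 against 2.85 ± 2.77.

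In the test of each class against the mean of the others (edgeR quasi-likelihood, library as a block, all p adjusted over 14738 genes), 5 members were higher in myeloid-like nuclei, where 49.8% of all genes tested passed in either direction and 25.2% were higher. The log2 fold change was 3.71 ± 0.29 (SE) for C1qa, 4.58 ± 0.24 for C1qb, 4.38 ± 0.28 for C1qc, 6.77 ± 0.35 for C3ar1 and 5.10 ± 0.47 for C5ar1, with adjusted p in edgeR of 2.8e-09 at the highest. Serping1 was lower there (log2 −1.90 ± 0.36, adjusted p in edgeR = 0.00011), a call lost with immune nuclei split more finely (log2 of −0.69 at the smallest over the alternatives).

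Most C1q UMIs lay outside the kept barcodes. Of the C1qa UMIs of a library, 11.7%, 18.7% and 12.9% were in kept nuclei, against 53.8% to 58.4% of the UMIs of all genes. In barcodes with 100 or fewer UMIs, taken as free RNA, C1qa measured 12.8, 26.4 and 30.4 CPM, C1qb 9.96, 25.1 and 28.4 CPM, and C1qc 6.47, 18.5 and 21.6 CPM. C1qa in fibroblast-, NMSC- and MSC-like nuclei (between 2.70 and 18.8 CPM) lay below the free level of the same library in every library. Expression by those cells and free RNA could not be told apart there, and the part of each was not tested. A C1qa UMI was seen in 13.2%, 32.7% and 19.0% of myeloid-like nuclei (exact 95% binomial intervals 7.41 to 21.2, 26.6 to 39.3 and 13.7 to 25.2, counting error only), against 0.594%, 0.824% and 0.498% of SGC-like nuclei, although the median SGC-like nucleus was deeper (3117, 7148 and 7797 UMIs, against 2329, 3655 and 3701). Of the UMIs of the 3 chains in kept nuclei, myeloid-like nuclei held 16.9%, 34.0% and 43.0%, and the more numerous neuron-like nuclei 42.6%, 19.4% and 20.6%.

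Among the tested classes fibroblast-like nuclei had the highest mean levels of C1s1, C3 and Serping1, for C3 through aged replicate 2: in the adult library C3 was higher in myeloid-, NMSC- and lymphocyte-like nuclei (10.1, 5.88 and 5.68 CPM), and in aged replicate 1 it was 33.3 CPM in lymphocyte-like nuclei. Serping1, the C1 inhibitor, measured 90.2, 141 and 152 CPM, above every library of the next class (NMSC-like, 35.0 ± 16.2 CPM, SD, n = 3). C1s1, the protease that cleaves C4, measured 19.4, 90.2 and 93.4 CPM, and C3, the substrate on which all pathways meet, 4.11, 32.6 and 63.5 CPM. For C1s1 the adult value lay within the range of the next class, endothelial-like nuclei, and for C3 it lay below every lymphocyte-like value and near the free level of that library (4.19 CPM). Against the mean of the remaining classes these genes were higher in fibroblast-like nuclei, with log2 fold changes of 2.92 ± 0.15 for Serping1, 3.34 ± 0.25 for C1s1 and 2.35 ± 0.42 for C3 and adjusted p in edgeR of 9.1e-05 at the highest, where 34.8% of all genes tested passed. Mural-like nuclei, not tested because aged replicate 2 held 4 of them, had 8, 5 and 4 C1s1 UMIs (52.3, 86.0 and 280 CPM).

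C4b, the classical pathway substrate of C1s, was highest in NMSC-like nuclei, at 223, 527 and 401 CPM (342, 809 and 283 UMIs), above every library of the SGC-like class, with 49.9, 168 and 170 CPM. MSC-like nuclei had 14.6, 175 and 137 CPM, in the adult library below fibroblast- and myeloid-like nuclei (20.1 and 43.7 CPM). The SGC-, MSC-, myeloid- and fibroblast-like classes overlapped each other in this order, and neuron-like nuclei had 3.91, 9.84 and 5.46 CPM, below every library of the other tested classes. Against the mean of the others, C4b was higher in NMSC-like (log2 3.28 ± 0.21, 22.9% of all genes tested passed), SGC-like (1.59 ± 0.23, 45.3%) and MSC-like nuclei (0.92 ± 0.25, 36.7%), and lower in endothelial-like (−1.66 ± 0.44, 26.4%) and neuron-like nuclei (−3.20 ± 0.30, 65.5%), with adjusted p in edgeR of 0.0063 at the highest. The MSC-like excess was lost without aged replicate 1 and without aged replicate 2 (log2 of 0.57 at the lowest), and the endothelial-like deficit without aged replicate 1 (adjusted p in edgeR = 0.30). C1s1 was higher in NMSC-like (1.30 ± 0.35) and endothelial-like nuclei (1.36 ± 0.44) and Serping1 in NMSC-like nuclei (0.83 ± 0.21), with adjusted p in edgeR of 0.023 at the highest. The endothelial-like C1s1 call was lost in 5 of 11 alternatives, among them without any 1 library, and the NMSC-like calls of C1s1 and Serping1 without aged replicate 1 (adjusted p in edgeR = 0.30 and 0.23), that of Serping1 also without integration (adjusted p in edgeR = 0.25). In lymphocyte-like nuclei, where 30.5% of all genes tested passed, Serping1 was lower (log2 −1.99 ± 0.49, adjusted p in edgeR = 0.0029), which was lost with thinning and without integration.

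Against the other classes 7 of the 9 members were lower in neuron-like nuclei (28.0% of all genes tested were), between log2 −1.86 ± 0.54 for C5ar1 and −3.20 ± 0.30 for C4b. The C5ar1 call was lost without any 1 library, that of C3 with free RNA subtracted, and that of C1s1 without integration and with immune nuclei split more finely. In SGC-like nuclei 5 members, C1qa, C1qb, C1qc, C3 and C1s1, were lower (21.2% of all genes tested were). C1qa and C1qb were lost with free RNA subtracted, and C1s1 (log2 −1.23) was lost in 5 of 12 alternatives and turned to 1.21 in the clustering without integration. Serping1 was higher in neuron-like nuclei by a small margin (log2 0.41 ± 0.17, adjusted p in edgeR = 0.034), a call lost in 8 of 13 alternatives. Its neuron-like levels, 15.7 to 26.6 CPM over the libraries, lay below free RNA of the same library (23.1, 37.8 and 46.0 CPM). Neuron-like nuclei held 61.9%, 62.6% and 72.1% of all Serping1 UMIs in kept nuclei, a share that also grows with the UMIs of all genes they held. The Serping1 level was uneven among the 15 neuron-like clusters. In 3 of them, all with the marker Mrgprd of non-peptidergic nociceptors, Serping1 measured 40.3 to 110 CPM over the libraries, and in the other 12, of which 2 also had that marker, 0 to 22.0 CPM. These 3 clusters were singled out after their values were seen.

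**Figure D1:**
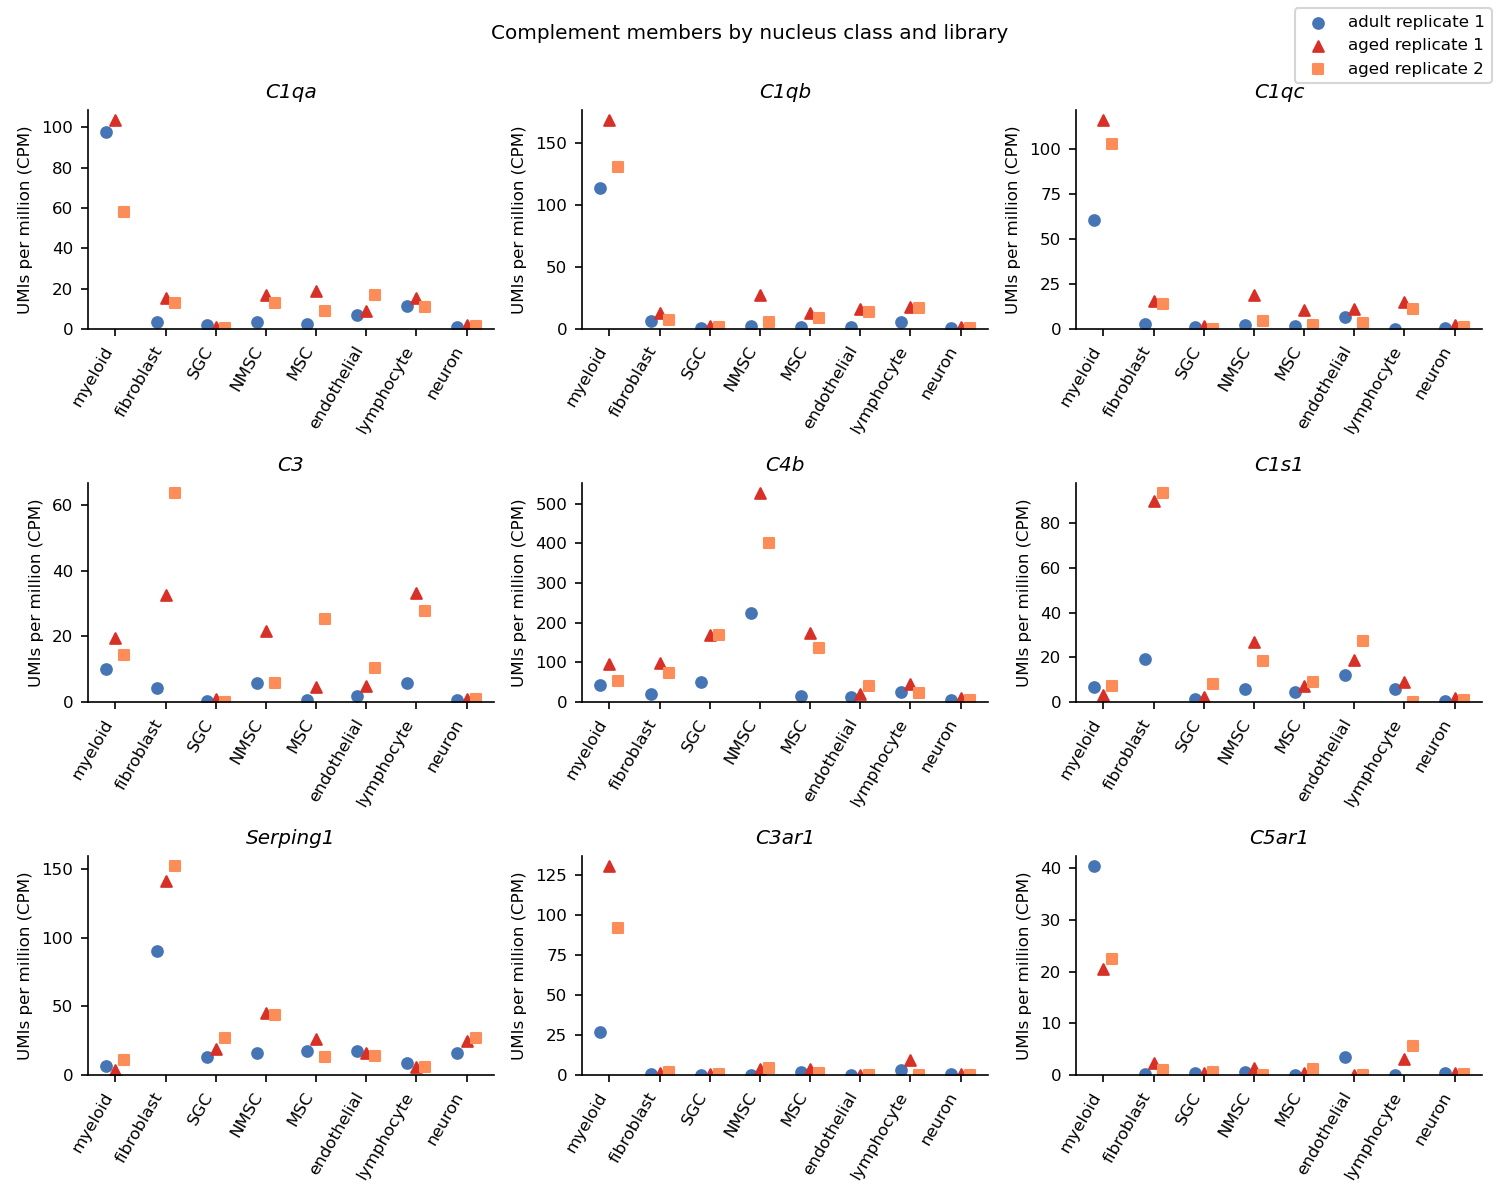
Each panel plots 1 of the 9 members in CPM (UMIs per 1000000 UMIs of the class, linear axis) for 8 nucleus classes, with a point per library (circle adult, triangle aged replicate 1, square aged replicate 2). C1q chains and receptors peak in myeloid nuclei, C1s1 and Serping1 in fibroblasts, C3 there in aged replicate 2 only, and C4b in NMSC, where it reached 527 CPM.

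Over all kept nuclei 7 of the 9 members were higher in the aged libraries, where 12.5% of 23245 genes tested passed in either direction and 3.65% were higher. Summed over all kept nuclei, a different number of cells of a type and a different amount of RNA per cell cannot be told apart. C4b measured 15.6, 54.8 and 34.5 CPM, C3ar1 0.476, 3.63 and 2.90 CPM, and C3 0.942, 3.49 and 4.89 CPM. In each of the 7 both aged libraries stood above the adult library. The aged over adult fold was 6.24 for C3ar1, 4.03 for C3, 3.89 for C1qc, 3.15 for C1qb, 2.64 for C1s1, 2.61 for C4b and 2.58 for C1qa, with adjusted p in edgeR of 9.8e-05 at the highest. Serping1 (log2 0.50 ± 0.21, adjusted p in edgeR = 0.12) and C5ar1 (0.37 ± 0.42, adjusted p in edgeR = 0.65) did not pass. The median log2 fold change was 1.40 over the members and 0.01 over all genes tested. The members were chosen with earlier results of these data known, so their count and median are a description. The 7 calls passed in all 7 alternatives with a test. Their sizes moved: log2 lay between 2.48 and 3.53 for C3ar1 (2.64 in the main test) and between 1.16 and 2.20 for C1qa (1.37). Over the same libraries the myeloid-like share of kept nuclei differed (0.920%, 4.35% and 7.47%, from 106, 223 and 195 nuclei). The SGC-like share differed too (27.8%, 7.10% and 7.70%, from 3200, 364 and 201 nuclei). The part of both in these sums was not tested.

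Within classes 15 of 45 member and class pairs passed, all of them higher in the aged libraries, where between 0.407% and 6.23% of all genes tested in a class were higher. The nuclear RNA Malat1 measured 50034, 14747 and 16136 CPM over all kept nuclei, and free RNA made up 10.2%, 13.6% and 22.1% of the UMIs of a library. Their part in the age differences was not tested. A gene entered a test when 1 library had enough UMIs, so members low in the adult library could pass the filter through the aged libraries alone, and the counts and medians of members that follow are a description. The plot of age differences by class gives the tested members of 5 classes.

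**Figure D2:**
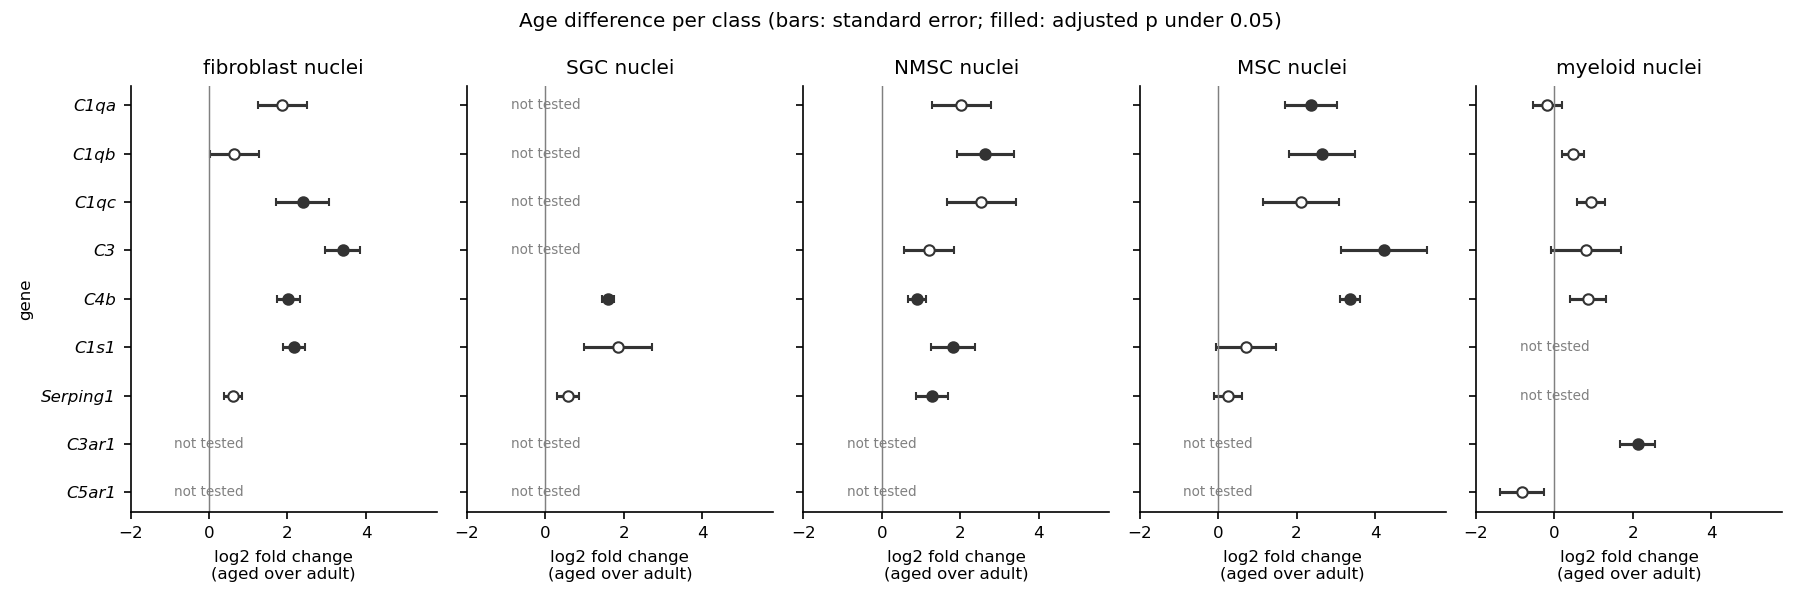
Log2 fold change of aged over adult (horizontal axis) for each member in fibroblast, SGC, NMSC, MSC and myeloid nuclei, with bars for the standard error and filled points for an adjusted p under 0.05 in edgeR. C4b is filled in the first 4 panels, between 0.90 and 3.36, C3ar1 alone is filled in the myeloid panel, and members with too few UMIs are marked as not tested.

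C4b rose in every glial class and in fibroblast-like nuclei. In SGC-like nuclei it went from 49.9 CPM to 168 and 170 CPM (log2 1.60 ± 0.15, 3.04-fold, adjusted p in edgeR = 6.4e-23), and both aged libraries lay close together and far above the adult one. It was the only one of 3 members tested there that passed, where 14.0% of all genes tested did and 5.85% were higher. The summed SGC markers measured 1457, 1170 and 1166 CPM in these nuclei (0 of 8 at zero) and neuron markers 978, 1376 and 1266 CPM (0 of 12). Their part in the C4b difference was not tested. In MSC-like nuclei C4b went from 14.6 CPM (27 UMIs) to 175 and 137 CPM (429 and 125 UMIs), a log2 fold change of 3.36 ± 0.26 (adjusted p in edgeR = 4.9e-35). Over the alternatives the log2 fold change lay between 2.68 and 5.08. The adult MSC-like level was below the free level of that library (17.6 CPM), and the aged levels were above theirs (45.4 and 36.7 CPM). In NMSC-like nuclei the increase was smaller, from 223 to 527 and 401 CPM (log2 0.90 ± 0.23, adjusted p in edgeR = 0.0033), and it did not pass in the DESeq2 test, the fit over all classes or the clustering without integration, where the log2 fold change was 0.21. In the same nuclei the summed NMSC markers measured 4311, 6402 and 5747 CPM (0 of 7 at zero), SGC markers 764, 473 and 483 CPM (0 of 8) and cycling markers 25.5, 87.2 and 79.3 CPM (0 of 4), and their part in the C4b difference was not tested. In neuron-like nuclei C4b alone of 9 members passed (log2 0.85 ± 0.28, adjusted p in edgeR = 0.029), where 9.33% of all genes tested did and 1.83% were higher. The neuronal levels lay below free RNA in all 3 libraries, and with free RNA subtracted the adjusted p in edgeR was 0.67.

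The share of nuclei with a C4b UMI moved the same way. It was 12.2%, 48.9% and 56.7% in SGC-like nuclei and 4.29%, 33.7% and 29.1% in MSC-like nuclei. The median aged nucleus was deeper in the SGC-, MSC- and NMSC-like classes, while in neuron-like nuclei the medians were 7342, 5748 and 7408 UMIs. Each nucleus was therefore also thinned to 1000 UMIs, which every nucleus had. The shares were then 4.91%, 15.1% and 16.9% in SGC-like nuclei, 0.495%, 15.8% and 11.2% in MSC-like nuclei, and 16.4%, 36.8% and 31.3% in NMSC-like nuclei. These shares come from the same UMIs as the age tests. Their exact 95% intervals cover counting error within a library only. Those of the adult and aged libraries did not overlap in these 3 classes, before or after thinning. In lymphocyte-like nuclei, set beside them as a background of free RNA, the thinned shares were 1.19%, 4.20% and 0%, the last of 62 nuclei (exact upper bound 5.78%).

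**Figure D3:**
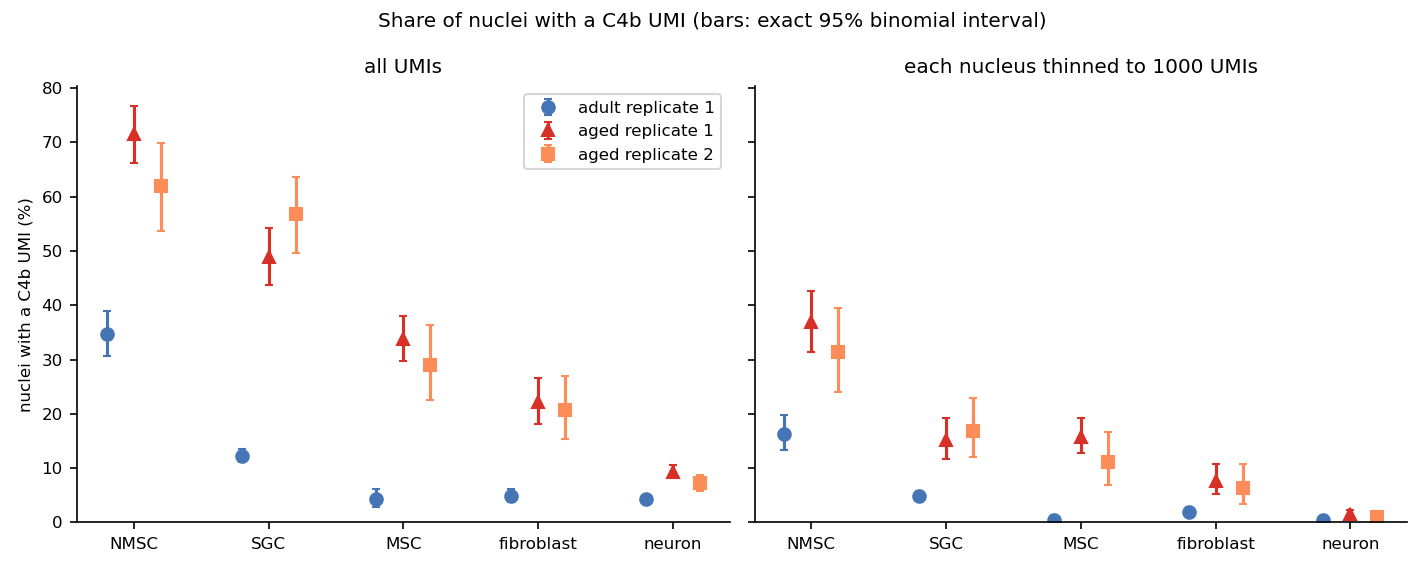
Share of nuclei with a C4b UMI (vertical axis, %) in 5 classes, per library, from all UMIs (left) and with each nucleus thinned to 1000 UMIs (right), with exact 95% binomial intervals as bars. Aged libraries stand above the adult library in all 5 classes, and in SGC nuclei the shares go from 12.2% to 48.9% and 56.7% with all UMIs.

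The summed level of the MSC markers in MSC-like nuclei differed between the libraries (43400, 18008 and 16567 CPM, 0 of 8 at zero), as did that of the NMSC markers in the same nuclei (1518, 2838 and 2776 CPM, 0 of 7 at zero). Their part in the C4b difference was not tested. The age effect of C4b in MSC-like nuclei exceeded the mean age effect of the other classes by 2.23 ± 0.39 on the log2 scale (adjusted p in edgeR = 0.0030), the only one of 72 member and class pairs to pass this test of the difference, where 0.422% of 16584 genes tested passed (0.103% in endothelial-, 0.410% in fibroblast-, 0.591% in lymphocyte-, 2.18% in myeloid-, 0.277% in neuron-, 0.754% in NMSC- and 0.663% in SGC-like nuclei). It passed in 10 of 12 alternatives and was lost with free RNA subtracted and with immune nuclei split more finely (adjusted p in edgeR up to 0.20). For the other pairs a difference in the age effect between classes was not shown.

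In fibroblast-like nuclei 4 of 7 members tested rose, where 4.53% of all genes tested passed and 1.94% were higher. C1s1 went from 19.4 CPM (80 UMIs) to 90.2 and 93.4 CPM (log2 2.16 ± 0.28, adjusted p in edgeR = 3.6e-05). C3 went from 4.11 CPM (17 UMIs) to 32.6 and 63.5 CPM, a 10.6-fold difference (log2 3.41 ± 0.45, adjusted p in edgeR = 3.8e-05), with both aged libraries above the adult one. C4b went from 20.1 CPM to 98.3 and 72.9 CPM (log2 2.02 ± 0.29, adjusted p in edgeR = 0.00013). The summed NMSC markers measured 2029, 3689 and 3833 CPM in the same nuclei (0 of 7 at zero), and their part in the C4b difference was not tested. C1qc also passed (log2 2.38 ± 0.67, adjusted p in edgeR = 0.040), from 2.66 CPM to 15.7 and 14.0 CPM, which is below free RNA in each library, and was lost in 5 of 10 alternatives (adjusted p up to 0.66, in DESeq2, with log2 between 2.24 and 4.48 over the alternatives). Serping1, at 90.2, 141 and 152 CPM, did not pass (log2 0.62 ± 0.23, adjusted p in edgeR = 0.16). The median log2 fold change was 2.02 over the members tested and 0.00 over all genes tested. C1s1, C3 and C4b passed in all 10 alternatives with a test.

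The fibroblast-like class joined 4 clusters, and C3 was uneven among them. The cluster led by Lum and Scara5 held 17.1%, 28.1% and 30.5% of the class (220, 113 and 62 nuclei), and the part of this make-up in the class values was not tested. In it C3 measured 1.67, 91.7 and 154 CPM from 1, 45 and 55 UMIs, so that this cluster held 101 of the 141 C3 UMIs of the class. C4b went there from 13.4 CPM to 167 and 148 CPM and C1s1 from 30.1 CPM to 167 and 157 CPM. That cluster held 143 of the 330 C4b UMIs of the class, and C4b in the other clusters is plotted but not described here. In the cluster led by Slc47a1 and Slc26a7, C3 measured 9.12, 17.4 and 34.5 CPM, and in that led by Svep1 and Thbs4 no more than 4.47 CPM. C1s1 was higher in both aged libraries in those clusters too (10.3, 47.9 and 42.5 CPM and 29.7, 65.5 and 102 CPM). The clusters are given as values, without a test.

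**Figure D4:**
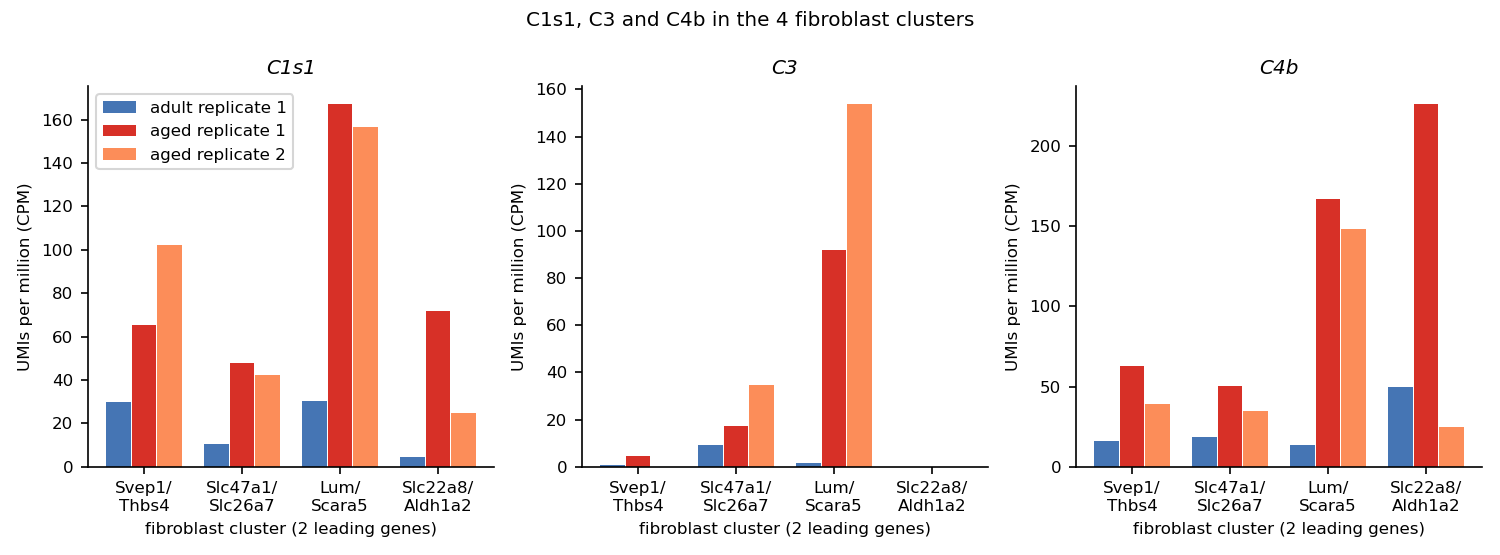
Bars give C1s1, C3 and C4b in CPM (from 0) in the 4 fibroblast clusters, named by 2 of their leading genes, per library. C3 is concentrated in the aged libraries of the Lum/Scara5 cluster, at 91.7 and 154 CPM, while C1s1 is higher in the aged libraries of every cluster. In the Slc22a8/Aldh1a2 cluster C1s1 rests on 11 UMIs over all libraries.

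In myeloid-like nuclei only C3ar1 rose among 7 members tested, where 11.5% of all genes tested passed and 6.23% were higher. It went from 26.9 CPM (8 UMIs) to 131 and 92.1 CPM (134 and 78 UMIs), a log2 fold change of 2.13 ± 0.45 (adjusted p in edgeR = 0.0012). C1qa did not pass (log2 −0.18 ± 0.37, adjusted p in edgeR = 0.81), nor did C1qb (0.47 ± 0.29, 0.35 likewise) or C1qc (0.93 ± 0.36, 0.093 likewise). C5ar1, with 12, 21 and 19 UMIs, measured 40.3, 20.5 and 22.4 CPM (log2 −0.83 ± 0.56, adjusted p in edgeR = 0.40). The median log2 fold change was 0.82 over the members tested and 0.03 over all genes tested. C3ar1 did not pass in the DESeq2 test, with thinned nuclei or in the clustering without integration. The summed myeloid markers were level in these nuclei (3504, 3604 and 3524 CPM), while B lymphocyte markers measured 1742, 205 and 260 CPM (0, 3 and 2 of 8 at zero), dendritic cell markers 269, 60.4 and 46.1 CPM (0, 1 and 2 of 5), T lymphocyte markers 195, 26.3 and 90.9 CPM (0, 4 and 2 of 8) and SGC markers 340, 141 and 125 CPM (none of 8). Their part in the C3ar1 difference was not tested.

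The make-up of the myeloid-like class differed between libraries. The sub-cluster led by Ms4a7 and Stab1, which are macrophage genes, held 34.0%, 58.3% and 44.1% of myeloid-like nuclei, and that with Ccr2 and F13a1, genes of monocytes, 66.0%, 16.1% and 28.7%. A sub-cluster led by Gpnmb and Mmp12 held 25.6% and 27.2% in the aged libraries and none of 106 adult nuclei (exact upper bound 3.42%). C3ar1 was near 140 CPM there (139 and 136), and 55.8, 155 and 104 CPM in the Ms4a7 sub-cluster. Without the Gpnmb sub-cluster the log2 fold change of C3ar1 was 1.81 (adjusted p in edgeR = 0.11), and within the Ms4a7 sub-cluster alone, with 36 adult nuclei and 5 adult UMIs, 1.19 (adjusted p in edgeR = 0.36). Within the Ms4a7 sub-cluster C1qb measured 235, 213 and 174 CPM, and in the Ccr2 sub-cluster 62.5, 46.8 and 18.8 CPM. C5ar1 measured 100.5, 23.7 and 27.8 CPM in the Ms4a7 sub-cluster, from 9, 11 and 8 UMIs.

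**Figure D5:**
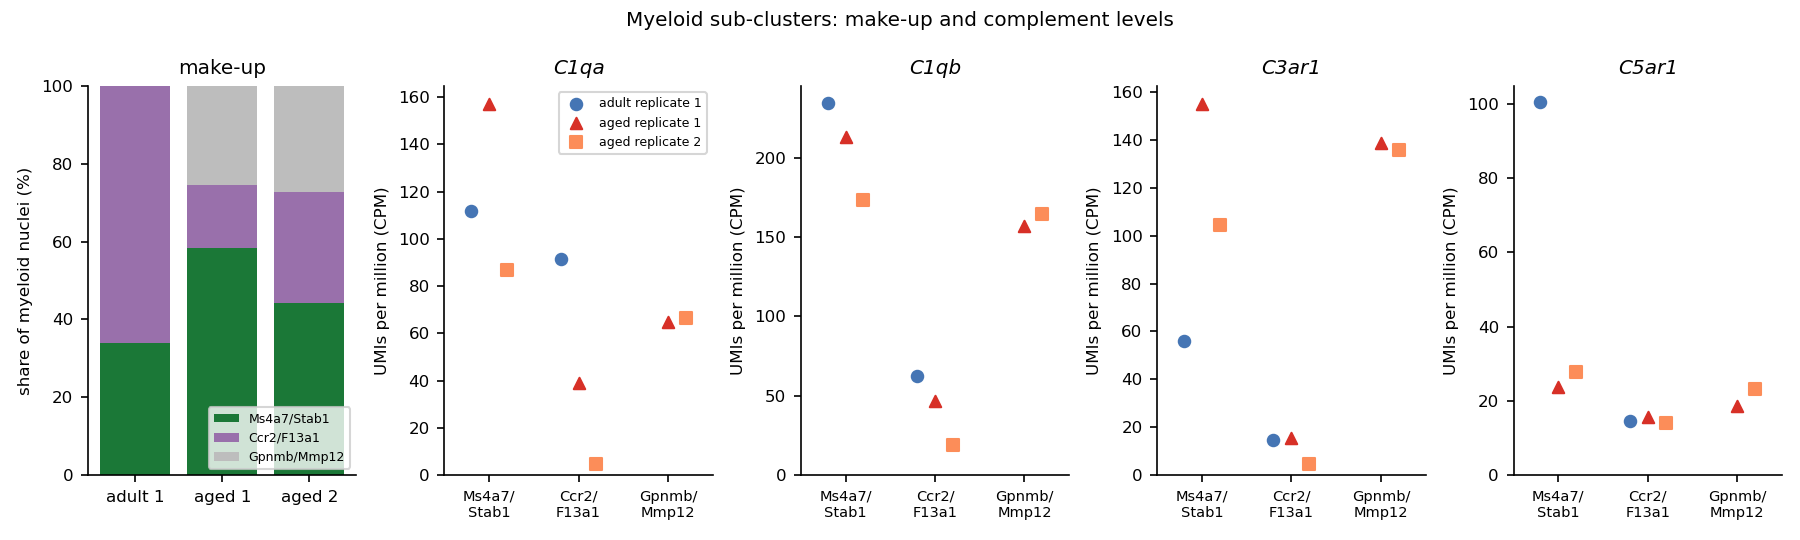
The first panel stacks the shares of myeloid nuclei in 3 sub-clusters per library (%), and the other panels plot C1qa, C1qb, C3ar1 and C5ar1 in CPM by sub-cluster and library. The Gpnmb/Mmp12 sub-cluster has no adult nuclei, and C3ar1 is near 140 CPM in it in both aged libraries.

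Further members passed in the Schwann-like classes at low levels. In NMSC-like nuclei 4 of 7 members tested rose (7.27% of all genes tested passed and 3.53% were higher): beside C4b, C1s1 went from 5.88 CPM to 26.7 and 18.4 CPM (log2 1.81 ± 0.56, adjusted p in edgeR = 0.023), Serping1 from 16.3 CPM to 44.9 and 43.9 CPM (1.27 ± 0.41, adjusted p in edgeR = 0.031), and C1qb from 2.61 CPM to 27.3 and 5.67 CPM (2.64 ± 0.72, adjusted p in edgeR = 0.0065). Serping1 lay below free RNA in the adult library and in aged replicate 2 (23.1 and 46.0 CPM) and was lost in 6 of 10 alternatives (log2 down to 0.43), and C1s1 was lost in 4 of 8. Aged replicate 2 was near the adult library for C1qb, whose level there, 5.67 CPM, was below free RNA (28.4 CPM). The C1qb call was lost without integration (adjusted p in edgeR = 0.38), with log2 down to 0.94 over the alternatives. In MSC-like nuclei 4 of 7 rose (11.3% of all genes tested passed and 4.71% were higher): beside C4b, C1qa (log2 2.37 ± 0.66, adjusted p in edgeR = 0.0049) and C1qb (2.66 ± 0.84, adjusted p in edgeR = 0.018) were below free RNA in every library, and C3 had 1, 11 and 23 UMIs (0.541, 4.50 and 25.3 CPM), below free RNA in the adult library and aged replicate 1 (4.19 and 11.0 CPM). C1qa and C1qb were each lost in 3 of 8 alternatives, and C3 in the fit over all classes. The aged over adult ratio of C3 CPM in MSC-like nuclei was 18.7 with a 95% counting interval of 3.14 to 761, and that of C1qb, with 3 adult UMIs, 7.16 (2.28 to 36.2). Without aged replicate 2 the log2 fold change of C3 was 2.84, and without aged replicate 1 it was 5.24. The summed level of the 10 myeloid markers in MSC-like nuclei was 332, 645 and 589 CPM (1, 0 and 1 at zero), and in NMSC-like nuclei 411, 568 and 443 CPM (1, 1 and 2 at zero), against 3504 CPM or more in myeloid-like nuclei. Its part in the C1q values was not tested.

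No member passed in endothelial-like nuclei (0 of 3 tested, 1.98% of all genes tested passed and 0.407% were higher) or lymphocyte-like nuclei (0 of 2, 2.37% and 0.546% likewise) by the edgeR test. None of these 5 pairs had an unadjusted p under 0.05, and DESeq2, which gave an adjusted p for 1 of them, called 0. C4b measured 12.1, 21.2 and 40.9 CPM in endothelial-like nuclei, from 7, 17 and 12 UMIs (log2 1.18 ± 0.78, adjusted p in edgeR = 0.69).

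The rest of the pathway was read from the list of 52 genes, grouped by role. Among the genes that start the cascade, C1ra, the partner protease of C1s, was higher in fibroblast-like (log2 2.24 ± 0.33) and NMSC-like nuclei (1.89 ± 0.38), C2, the partner of C4, in fibroblast-like nuclei (3.71 ± 0.23), and the collectin Colec12 in fibroblast-like (3.98 ± 0.21) and myeloid-like nuclei (3.06 ± 0.26) and, less so, endothelial-like nuclei (1.49 ± 0.33), with adjusted p in edgeR of 0.0012 at the highest. C4a, the near-identical copy of C4b, was higher in NMSC-like nuclei (log2 2.63 ± 0.37, adjusted p in edgeR = 6.1e-06), the class that also led for C4b. Reads could have been split between these copies, and the part of this in the C4a values was not tested. Of the regulators on the membrane, Cd55, which breaks up the C3 convertases, was higher in neuron-like (211, 303 and 279 CPM), MSC-like and lymphocyte-like nuclei, and Cd59a, which blocks the terminal pore, was higher in NMSC-like (198, 251 and 249 CPM), MSC-like (200, 227 and 209 CPM) and endothelial-like nuclei. The integrin chains of complement receptors 3 and 4, Itgam, Itgax and Itgb2, were higher in myeloid-like nuclei, by log2 4.78 to 6.06, and in lymphocyte-like nuclei, by 2.15 to 3.40. None of the 7 terminal genes had enough UMIs for the test of a class against the others.

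With age, the pathway list did not move one way. Over all kept nuclei 7 of 48 tested rose and 3 fell, where 12.5% of all genes tested passed and 3.65% were higher. Beside the counts that follow, all genes tested passed in 4.53% of cases in fibroblast-like, 11.5% in myeloid-like, 14.0% in SGC-like, 11.3% in MSC-like, 7.27% in NMSC-like, 9.33% in neuron-like, 1.98% in endothelial-like and 2.37% in lymphocyte-like nuclei. In fibroblast-like nuclei 3 of 24 tested rose and 1 fell: C1ra (11.1, 33.7 and 28.0 CPM, log2 1.40 ± 0.37, adjusted p in edgeR = 0.026) and factor B (Cfb, 12.3, 33.2 and 29.9 CPM, 1.27 ± 0.36, adjusted p in edgeR = 0.040) were among those that rose, and Vtn, which encodes vitronectin, fell (62.9, 24.4 and 35.5 CPM, −1.19 ± 0.29, adjusted p in edgeR = 0.016). In myeloid-like nuclei 2 of 20 rose and 3 fell. Itgax rose from 30.3 CPM to 155 and 149 CPM (2.40 ± 0.39, adjusted p in edgeR = 4.4e-05), a gene among the leading 10 of the Gpnmb sub-cluster, and Colec12 from 114 CPM to 228 and 250 CPM (1.14 ± 0.26, adjusted p in edgeR = 0.0026), while properdin (Cfp), which stabilises the alternative pathway convertase, fell from 104 CPM to 41.9 and 44.9 CPM. Cfp also fell in SGC-like (34.3, 19.1 and 14.5 CPM) and NMSC-like nuclei (35.3, 14.3 and 15.6 CPM). In SGC-like nuclei 2 of 17 rose, C4a (6.15, 17.0 and 11.6 CPM) and Cd55 (32.8, 63.9 and 54.4 CPM), and 4 fell. In MSC-like nuclei 1 of 21 rose, C4a with 0, 57 and 5 UMIs, and 4 fell, Clu, which encodes clusterin, and the membrane regulators Csmd1, Csmd2 and Csmd3. In NMSC-like nuclei 1 of 17 rose, C1ra (4.57, 34.5 and 18.4 CPM), and 2 fell, Cfp and Csmd2. In neuron-like nuclei 1 of 46 rose and 3 fell, in endothelial- and lymphocyte-like nuclei none of 17 rose and 2 fell in each. The median log2 fold change of the list lay between −0.52 in lymphocyte-like and 0.17 in NMSC-like nuclei, against 0.00 to 0.05 over all genes tested.

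Over the 24 sums of a class and a library, the genes most like each member in log level were sought among 13709 genes; classes and libraries are shared between points, so the correlations are a description. C1qa was most like Lyz2 (r = 0.93) and C1qb (0.93), C1qb most like Trem2 (0.96) and Cd68 (0.94), and C1qc like Grn (0.91) and Camta2 (0.90). Lyz2 and Cd68 are among the markers that named the myeloid-like class, so their likeness was partly built in. C3ar1 was most like Rnf149 (0.93), C1s1 like C1ra (0.91), and C4b like Zfp638 (0.87), Sdc4 (0.85) and, at the fourth rank, C4a (0.85). Reads could have been split between C4b and C4a, so their likeness may be partly built in. C3 was most like Zc3h11a (0.84) and Serping1 like Gm48025 (0.89). Among members, C1qb and C1qc had r = 0.90, C1s1 and Serping1 0.64, and C4b and C1qc 0.21. C5ar1 was too low for this comparison.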

How the data were processed

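The authors deposited raw UMI counts per gene for every barcode of 3 libraries, made with PIPseeker and not normalised or filtered. The build was mm10 in the submitters' processing notes, and the annotation is not given in the sources used here. The members and gene lists were chosen with earlier results of these data known. Barcodes with more than 1000 genes were kept, which left slightly fewer nuclei than the study states. They were clustered in Seurat 5.3.0 (SCTransform, RPCA integration, 3000 variable genes without 11 complement genes, 30 components, resolution 0.8). A cluster was named from at least 3 markers that exceeded 2 times the mean of the other clusters. For neurons the bar was 3 times the 25th percentile over clusters. Immune nuclei were split again at 0.5, and mixed clusters were left out in place of a doublet caller. Counts were summed per library and class, and a class was tested where every library held at least 20 of its nuclei, using edgeR 4.0.16 (R 4.3.3) by the quasi-likelihood test with TMM scaling, filterByExpr and Benjamini-Hochberg adjustment over all genes, with a threshold of 0.05 and 1 residual degree of freedom in each age fit. DESeq2 1.42.0 and the other alternatives are given in the closing section, and the fits were tested on simulated data. Named genes were all 9 members and those pathway genes with an age call or a level of 20 CPM, of which the text gives a selection. Shares of nuclei have exact 95% binomial intervals, which cover counting error only. Positions are from GENCODE M21. Some genes of the pathway list are counted but not reported here.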

Additional observations from a re-analysis of the deposited data

Results flagged for a closer look

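The age effect of C4b in MSC-like nuclei differed from the mean age effect of the other classes by 2.23 on the log2 scale in the test of the difference itself (edgeR, adjusted p = 0.0030). Barcodes with 100 or fewer UMIs, which belong to no class, held C1q RNA. C1qa measured 12.8 CPM there in the adult library, 26.4 CPM in aged replicate 1 and 30.4 CPM in aged replicate 2. C1qb measured 9.96, 25.1 and 28.4 CPM and C1qc 6.47, 18.5 and 21.6 CPM in the same order, and both aged libraries stood above the adult one for each chain. Groups of 3 or fewer libraries were not examined for a library far from the others.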

How the results depend on the processing

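The 22 age calls on members were 7 over all kept nuclei and 15 within classes. All 22 kept their direction, and 12 passed in every alternative with a test, among them all 7 over all kept nuclei. Of 30 class calls 29 and 16 did. No paired analysis was possible because the adult and aged groups share only 1 replicate number. Leaving out an aged library leaves no spread to test an age effect. The finer immune split, the joint adjustment of contrasts and the 2 myeloid sub-cluster settings were chosen after seeing the data. The number of members called with age went from 1 to 0 in myeloid-like nuclei (DESeq2, thinning, clustering without integration and both sub-cluster settings), from 4 to 0 in NMSC-like nuclei with DESeq2 and without integration, to 1 in 1 fit over all classes and with thinning and to 2 with free RNA subtracted, and from 4 in MSC-like nuclei to 1 (DESeq2, the joint fit, thinning) or 2 (over 1500 genes, free RNA subtracted). In SGC-like nuclei it went from 1 to 2 with complement genes kept in the clustering and 3 without integration, and in neuron-like nuclei from 1 to 0 (DESeq2, the joint fit, free RNA subtracted) or 2 (library totals). DESeq2 gave an adjusted p to 2 of 7 members in NMSC-like and 1 of 7 in MSC-like nuclei, and thinning left 2 tested in each, so members without a test count there as not called. C1qc in fibroblast-like nuclei was lost in 5 of 10 alternatives. The 1 call on a difference between age effects went to 0 with free RNA subtracted and with the finer split, and the 30 class calls to 19 with thinning, where 11 of the 30 had no test. The share of MSC-like nuclei with a C4b UMI moved to 0.495%, 15.8% and 11.2% with thinning, and to 7.58% in the adult library over 1500 genes. The myeloid-like share of C1q UMIs in aged replicate 1 moved from 34.0% to 37.9% without integration, where C1s1 in SGC-like nuclei reversed to 1.21. The cause was not tested. Over all genes, DESeq2 called 997 in place of 2899 with age in all kept nuclei, 194 of 1282 in myeloid-like, 96 of 614 in fibroblast-like, 263 of 1926 in SGC-like, 197 of 925 in NMSC-like, 193 of 1496 in MSC-like and 595 of 2046 in neuron-like nuclei, and the joint fit 434 in MSC-like and 475 in SGC-like nuclei. With free RNA subtracted, fibroblast-like nuclei had 74. Clustering without integration gave no endothelial-like class, so that alternative was not run there.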
